A study of Mus musculus with 6 samples.

Results

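Transcripts of the proteasome, the barrel-shaped protease that degrades ubiquitin-tagged proteins, were read from RNA sequencing libraries of germinal center (GC) B cells with and without Senp1. The genes were taken as the protein-coding rows of the deposited table whose symbol starts with Psma, Psmb, Psmc, Psmd, Psme, Psmf or Psmg and a number, which gave 49 of 19680 rows. Of these, 48 had a mean of at least 1 normalized count and were tested. The 3 WT libraries are Senp1flox/flox, and the 3 cKO libraries are Senp1flox/flox Cgamma1-Cre, in which Cre is made by B cells that respond to antigen. All mice were C57BL/6 animals of 6 to 8 weeks, given 100 µg of NP-CGG into the abdominal cavity, and GC B cells (B220+ CD38- FAS+) were sorted from the spleen on day 14. WT mice carry no Cre, so effects of Senp1 loss and of Cre itself cannot be told apart. In bulk libraries, fewer cells of a type and less RNA per cell cannot be told apart either. Whether the libraries of a group come from separate animals is not stated, and the p-values therefore reflect only how much these libraries vary, which may be technical.

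The proteasome core is a stack of 4 rings, with outer rings of alpha subunits and inner rings of beta subunits. In most cells Psmb5, Psmb6 and Psmb7 provide the cutting sites, which act after hydrophobic, acidic and basic residues respectively. Lymphocytes, and other cells under interferon gamma, also make Psmb8, Psmb9 and Psmb10, which take the places of Psmb5, Psmb6 and Psmb7 in newly assembled cores. The resulting immunoproteasome is known for producing peptides that MHC class I molecules display. A regulatory particle of Psmc ATPases and Psmd subunits binds ubiquitinated proteins, unfolds them and feeds them into the core. Psme proteins are alternative caps, Psmf1 is an inhibitor of the core in the test tube, and Psmg proteins are chaperones of its assembly.

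The regions before the start sites of 5 of the 6 catalytic genes, those in the RefSeq table, are shown because the constitutive and the inducible subunits are known to be under different controls. Each is 250 bases long, ends at the base before the RefSeq start site (GRCm38.p6) and reads 5′ to 3′ on the strand of the gene. Psmb8 lies at chr17:34197945-34198194 (plus strand), Psmb9 at chr17:34187331-34187580 (minus), Psmb10 at chr8:105938393-105938642 (minus), Psmb5 at chr14:54617996-54618245 (minus) and Psmb6 at chr11:70525107-70525356 (plus). By the GENCODE gene bounds given below, the Psmb8 and Psmb9 windows lie inside their genes. Those of Psmb10 and Psmb5 reach partly into theirs. Capitals mark matches, on either strand, to a CCAAT box (CCAAT), a gamma-activated site (TTCNNNGAA), an interferon-stimulated response element (GAAA, any pair of bases, GAAA), an antioxidant response element (TGACNNNGC) or a kappaB site (GGG, any 5 bases, CC).
Psmb8: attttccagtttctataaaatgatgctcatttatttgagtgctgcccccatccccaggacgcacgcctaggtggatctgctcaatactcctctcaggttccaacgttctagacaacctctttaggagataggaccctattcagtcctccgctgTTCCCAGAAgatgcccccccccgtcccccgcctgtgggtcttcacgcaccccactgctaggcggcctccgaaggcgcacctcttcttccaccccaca
Psmb9: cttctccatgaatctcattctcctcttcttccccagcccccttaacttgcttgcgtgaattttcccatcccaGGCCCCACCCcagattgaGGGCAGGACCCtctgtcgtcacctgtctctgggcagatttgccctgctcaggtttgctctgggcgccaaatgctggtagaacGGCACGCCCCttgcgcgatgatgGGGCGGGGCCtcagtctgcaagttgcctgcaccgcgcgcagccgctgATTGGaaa
Psmb10: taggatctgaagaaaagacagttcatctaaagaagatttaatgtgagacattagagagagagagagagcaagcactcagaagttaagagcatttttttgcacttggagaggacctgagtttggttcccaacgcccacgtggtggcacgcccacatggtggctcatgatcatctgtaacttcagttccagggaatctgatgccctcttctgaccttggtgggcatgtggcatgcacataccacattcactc
Psmb5: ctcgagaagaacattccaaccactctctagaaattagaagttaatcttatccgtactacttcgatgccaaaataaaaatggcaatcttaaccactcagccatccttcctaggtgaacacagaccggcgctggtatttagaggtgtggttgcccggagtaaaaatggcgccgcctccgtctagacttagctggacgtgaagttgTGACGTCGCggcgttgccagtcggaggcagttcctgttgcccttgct
Psmb6: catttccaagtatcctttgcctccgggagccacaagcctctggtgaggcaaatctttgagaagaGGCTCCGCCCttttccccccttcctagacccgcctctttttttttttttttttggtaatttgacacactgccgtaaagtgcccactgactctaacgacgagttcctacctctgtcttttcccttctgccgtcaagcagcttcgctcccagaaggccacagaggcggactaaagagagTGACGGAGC

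The Psmb8 window held a gamma-activated site letter pattern starting 97 bases before the start site, a pattern present in 7.02% of 32851 windows of the same length. The Psmb5 and Psmb6 windows each held an antioxidant response element pattern, at 47 and 9 bases before the start site, and 10.2% of all windows did. The Psmb6 window also held a kappaB match, 186 bases before the start site. The Psmb9 window held 5 kappaB matches, of which the pair at 160 and 159 bases overlap each other, and a CCAAT box on the opposite strand. Tap1, a subunit gene of the transporter that carries peptides into the ER, runs in the other direction. Its RefSeq start site is 226 bases from that of Psmb9, inside the Psmb9 window. By GENCODE bounds the genes overlap by 212 bases. A kappaB pattern this loose was found in 45.8% of all windows and a CCAAT box in 33.8%. The 41 proteasome genes found in the RefSeq table had 44 windows. Of these 31.8% held a CCAAT box, 4.55% a gamma-activated site, 11.4% an antioxidant response element and 54.5% a kappaB site. The interferon-stimulated response element pattern was in 6.82% of them (Psmb3, Psmd4 and Psmd9) and in 2.98% of all windows. The Psmb10 window held no match to any of the 5 patterns. A match says that the letters are there and not that a factor binds.

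GC B cells held transcripts of both kinds of catalytic subunit, and none of the 6 differed between genotypes beyond the spread of the libraries. Psmb8 (ENSMUSG00000024338, chr17:34197721-34201454 in GRCm38) had normalized counts of 2938, 2078 and 1923 in replicates 1 to 3 of WT and of 2877, 1987 and 2147 in those of cKO. Replicate 1 was the highest library of each genotype, and the groups overlapped. Its log2 difference, cKO minus WT, was 0.02 (95% confidence interval -0.44 to 0.49). Psmb9 (chr17:34181987-34187764) measured 1130, 627 and 627 in WT and 869, 526 and 678 in cKO, again with replicate 1 highest in both, and differed by -0.17 on the log2 scale (-0.78 to 0.43). Psmb10 (chr8:105935735-105938444) measured 603, 419 and 395 in WT and 548, 459 and 494 in cKO, a log2 difference of 0.11 (-0.31 to 0.52). For all 3 inducible subunits the 2 replicate 1 libraries were above the other 4 libraries, while the WT and cKO groups overlapped. The sign turned for Psmb10, whose log2 difference was -0.14 within replicate 1 and 0.23 within replicates 2 and 3.

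The constitutive partners gave the same picture. Psmb5 (chr14:54614119-54618022), partner of Psmb8, measured 364, 218 and 181 in WT and 365, 190 and 190 in cKO. Its replicate 1 libraries stood 1.87-fold above the other libraries, and its log2 difference between genotypes was -0.04 (-0.79 to 0.70). Psmb6 (chr11:70525367-70527858), partner of Psmb9, was the steadiest of the 6, at 828, 802 and 716 in WT and 880, 750 and 807 in cKO, and its highest library was 1.23 times its lowest. Its log2 difference was 0.05 (-0.24 to 0.35). Psmb7 (chr2:38588036-38644087), partner of Psmb10, measured 999, 812 and 730 in WT and 990, 719 and 839 in cKO, a log2 difference of 0.00 (-0.38 to 0.39). By limma the adjusted p-values of the 6 genes ran from 0.962 (Psmb9) to 0.998 (Psmb7) over 14678 genes. The intervals of Psmb5 and Psmb9 reach past 0.7 in size, so a decrease of that size in either gene lies within its interval.

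**Figure D1:**
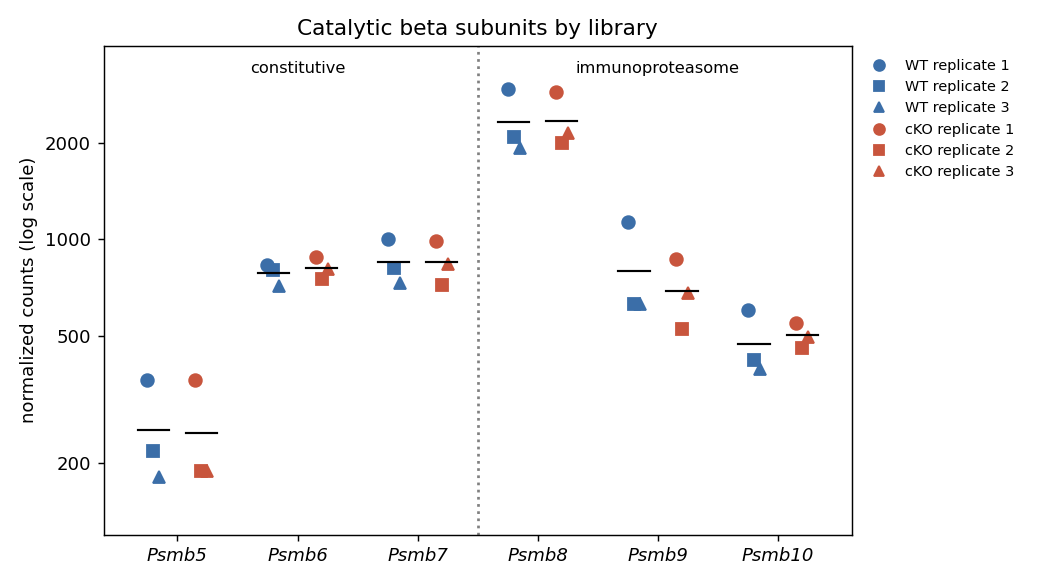
Normalized counts of the 6 catalytic beta subunit genes on a log scale, 1 marker per library (blue WT, red cKO; circle, square and triangle for replicates 1, 2 and 3), with black lines at the group means. Circles are highest in each genotype for all 6 genes, from 2938 for Psmb8 in WT to 364 for Psmb5 in WT, and the blue and red markers overlap for each gene.

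Divided by exon length, the inducible and the constitutive catalytic subunits were present at similar summed levels in both genotypes. The log2 ratio of summed normalized counts per kilobase, Psmb8 to Psmb10 over Psmb5 to Psmb7, was 0.43, 0.08 and 0.17 in replicates 1 to 3 of WT and 0.26, 0.15 and 0.18 in those of cKO. WT averaged 0.23 ± 0.18 (SD, n = 3) and cKO 0.19 ± 0.06 (n = 3), a difference of -0.03 that is smaller than either SD. The inducible subunits made up 57.4%, 51.4% and 53.0% of the 6 genes' summed level per kilobase in WT and 54.5%, 52.5% and 53.0% in cKO. WT replicate 1 was the highest library by the ratio, and so also by the share, which comes from the same sums. Within replicate 1 the ratio differed by -0.168 and within replicates 2 and 3 by 0.035 (log2, cKO minus WT).

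The balance differed from one partner pair to another. Psmb8 stood above Psmb5 in every library, by 4.45, 5.26 and 5.86 times per kilobase in WT and 4.35, 5.78 and 6.24 times in cKO. Psmb9 was below Psmb6 in every library, at 0.806, 0.462 and 0.517 of its level in WT and 0.583, 0.414 and 0.496 in cKO. Psmb10 was below Psmb7, at 0.534, 0.457 and 0.478 of its level in WT and 0.490, 0.565 and 0.521 in cKO. The group means of the log2 ratio were 2.37 ± 0.20 in WT and 2.43 ± 0.27 in cKO for Psmb8 over Psmb5, -0.79 ± 0.42 and -1.02 ± 0.25 for Psmb9 over Psmb6, and -1.03 ± 0.12 and -0.93 ± 0.10 for Psmb10 over Psmb7 (SD, n = 3). WT and cKO libraries overlapped for each pair. The levels of the pairs depend on the exons taken as length. With all annotated exons the log2 ratio of Psmb8 over Psmb5 was 1.07 to 1.59, Psmb9 was at 0.359 to 0.698 of Psmb6, and Psmb10 was above Psmb7 in every library, by 1.04 to 1.28 times. Counts on genes that overlap on opposite strands may mix: Psmb7 overlaps Nek6, Psmb8 the antisense gene Gm20496, Psmb9 Tap1 and Psmb10 the antisense gene Gm16156. Whether the counting used strand is not given in these sources.

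**Figure D2:**
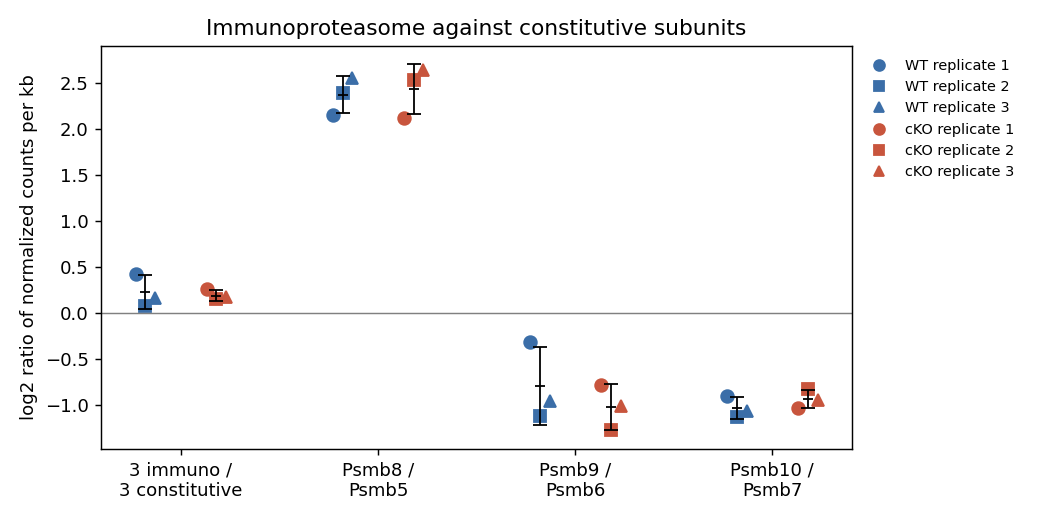
Log2 ratios of normalized counts per kilobase for the 3 inducible over the 3 constitutive catalytic subunits and for each partner pair, 1 marker per library (blue WT, red cKO; circle, square and triangle for replicates 1, 2 and 3), with group mean and SD in black. Psmb8 lies above Psmb5 in all 6 libraries, Psmb9 and Psmb10 lie below their partners, and the genotypes overlap in each column; with all annotated exons as length Psmb10 lies above Psmb7.

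Across the complex, structural genes of the core and of the regulatory particle had higher median levels than the Psmg and base chaperones. The maturation factor Pomp, outside the symbol pattern and named after its values were seen, measured 832 ± 114 normalized counts in WT and 849 ± 144 in cKO. Not divided by length, these were close to the counts of Psmb7 (847 ± 138 and 850 ± 136). The median over genes of the mean level was 775 normalized counts per kilobase for 7 alpha ring genes, 830 for the 4 non-catalytic beta genes, 731 for Psmb5 to Psmb7 and 549 for Psmb8 to Psmb10. It was 589 for the 6 ATPases and 381 for the 11 other base and lid subunits. Chaperones of the base (Psmd5, Psmd9 and Psmd10) had a median of 67.4, and the Psmg chaperones of the core, which are not part of the finished particle, 97.7. Psmb8 had the highest level, 1428 ± 281 (SD over 6 libraries), followed by Psme1 at 1076 ± 116 and Psmb6 at 999 ± 72.4. These levels depend on the exons counted as the gene's length. With all annotated exons in place of those of coding transcripts in the basic set, Psma6 ranked first and Psmb8 second of the 49, and Psmb6 was at rank 11. The medians were then 280 for Psmb5 to Psmb7 and 285 for Psmb8 to Psmb10, the opposite order, and 437 for the ATPases, above 361 for the alpha ring.

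The lowest gene was Psma8, an alpha subunit of spermatogenic cells, with 6 reads over all 6 libraries (normalized counts of 0, 1.06 and 2.56 for WT and 1.08, 0 and 0 for cKO). It was below the minimum and was not tested. Psmc3ip matched the symbol pattern but encodes a partner of meiotic recombinases and no proteasome subunit. It measured 121, 100 and 74.3 in WT and 110, 51.2 and 91.9 in cKO, with overlapping groups, and is counted among the 48 tested genes. Psme2b, at 30.2 ± 7.02 and 36.6 ± 22.5, is uncertain because 68.7% of the 50-base words in its transcripts also occur in transcripts of Psme2. All 837 bases of Psme2b also lie within Gm12185, a protein-coding gene on the same strand.

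**Figure D3:**
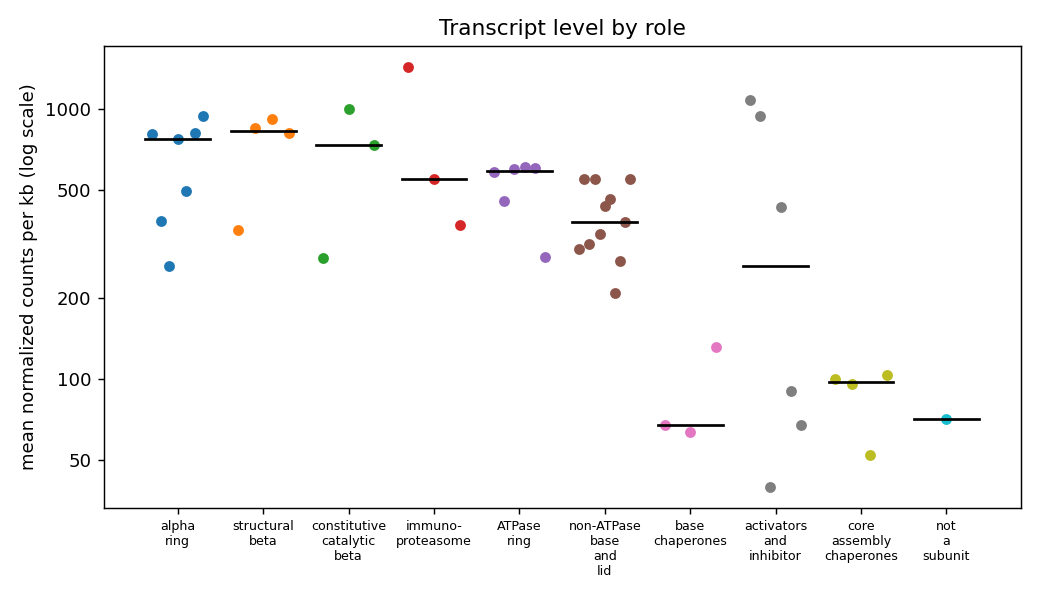
Mean normalized counts per kilobase over 6 libraries on a log scale, 1 point per gene grouped by role, with black lines at the medians; Psma8 (0.464 per kilobase) is left out. Core and regulatory particle genes lie mostly between 200 and 1000, with Psmb8 at 1428, and the chaperone genes lie between 52.2 and 131.

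No proteasome gene passed the test between genotypes. Of the 48 genes tested by limma 0 had an adjusted p under 0.05, and 0% of all 14678 genes did. At an unadjusted p under 0.05 there was 1 of the 48 (2.08%), lower in cKO, beside 5.15% of all genes. The groups did not overlap for 1 gene lower in cKO and for 0 genes higher, where 5.28% and 6.28% of all genes were lower or higher without overlap. The log2 differences were above 0 for 22 genes and below 0 for 26, with a median of -0.017 beside -0.002 over all genes. They ran from -0.34 (Psme4) to 0.40 (Psmg3), and for 45 of the 48 genes the 95% confidence interval lay within 1 log2 unit of 0. On the recovered reads edgeR, DESeq2 and limma-voom also called 0 of the 48, each with 1 gene at an unadjusted p under 0.05. Over all genes edgeR and limma-voom called 0 and DESeq2 called 20. In the authors' deposited table the adjusted p is 0.9996 for each of these 48 genes and empty for Psma8. Senp1 itself measured 915, 868 and 891 in WT and 373, 425 and 398 in cKO, without overlap, and had a limma adjusted p of 0.111. It was called by DESeq2 (adjusted p 2.78e-09), by limma with a term for replicate 1 (0.016) and by that fit without cKO replicate 2 (0.0104).

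In the alpha ring, which gates entry to the core, 4 of 7 tested genes had log2 differences above 0 and 3 below, between -0.07 and 0.12. Psma3, the alpha gene with the smallest p, measured 755, 715 and 660 in WT and 755, 698 and 868 in cKO, with cKO replicate 3 highest and cKO replicate 2 inside the WT range. Its log2 difference was 0.12 (-0.19 to 0.43). Psma7 measured 1123 ± 163 and 1095 ± 219, and Psma5 616 ± 93.4 and 618 ± 103. Of the non-catalytic beta subunits, Psmb2 measured 838, 676 and 593 in WT and 843, 624 and 797 in cKO (log2 difference 0.11, -0.29 to 0.51). Replicate 1 was highest in both genotypes. Psmb1, Psmb3 and Psmb4 had log2 differences of -0.02, -0.04 and 0.02.

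Of the 6 ATPases, which unfold substrates, 5 had log2 differences below 0, between -0.15 (Psmc6) and -0.01 (Psmc4), and Psmc5 was at 0.10. Psmc6 measured 662, 710 and 617 in WT and 637, 571 and 584 in cKO. Its WT replicate 3 lay below cKO replicate 1, so the groups overlapped (log2 difference -0.15, -0.43 to 0.14). Among the 11 other subunits of base and lid, 4 differences were above 0 and 7 below, all between -0.10 and 0.13. Psmd4, a ubiquitin receptor, measured 1120, 951 and 822 in WT and 1259, 883 and 1029 in cKO, a log2 difference of 0.13 (-0.27 to 0.53). Psmd14, which cuts ubiquitin chains from substrates, measured 871 ± 65.3 and 816 ± 85.5. Psmd1 and Psmd2, the large scaffold subunits of the base, measured 954 ± 120 and 926 ± 89.2, and 1640 ± 296 and 1610 ± 206.

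All 3 chaperones of the base had cKO values below WT on average, and none passed the test. Psmd10, an ankyrin repeat protein also called gankyrin, measured 235, 198 and 205 in WT and 214, 169 and 137 in cKO. Only cKO replicate 1 overlapped with WT. Its log2 difference was -0.31 (-0.77 to 0.14), with a limma adjusted p of 0.928, and it was -0.14 within replicate 1 and -0.40 within replicates 2 and 3. Without cKO replicate 3 it was -0.158, and without cKO replicate 1 it was -0.478. Psmd5 and Psmd9 differed by -0.09 and -0.10. Of the core assembly chaperones, Psmg3 measured 61.2, 25.6 and 33.3 in WT and 71.0, 32.3 and 53.1 in cKO, with overlapping groups. Its log2 difference of 0.40 was the most positive of the 48 genes and its interval had the highest upper bound (-0.54 to 1.34), on 358 reads in all. Leaving out WT replicate 2 or cKO replicate 1 gave 0.132 or 0.144. Leaving out WT replicate 1 or cKO replicate 2 gave 0.746 or 0.701. Psmg3 overlaps Gm26938, another protein-coding gene on its strand, by 2816 bases, so its counts may mix. Psmg1, Psmg2 and Psmg4 differed by 0.12, 0.20 and -0.11.

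Among the alternative caps, Psme4 was the one gene of the 48 whose groups did not overlap. It encodes PA200, a large cap that takes acetylated histones to the core without ubiquitin. Its values were 614, 647 and 693 in WT and 482, 497 and 566 in cKO, so the highest cKO library was below the lowest WT library. The means were 651 ± 39.7 and 515 ± 44.8 (SD, n = 3), a ratio of 0.790 on the fitted scale. The log2 difference was -0.34 (-0.64 to -0.04), with an unadjusted p of 0.0289 and a limma adjusted p of 0.915. It was -0.35 within replicate 1 and -0.34 within replicates 2 and 3. Over 20 alternatives it stayed between -0.42 and -0.29, with adjusted p-values of 0.440 to 1 in the 19 that have a test, so the gene was not called in any of them. Psme4 did not share the high replicate 1 values of most of the other genes, at -0.13 for replicate 1 against the other libraries (log2).

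The other caps and the inhibitor overlapped between genotypes. Psme1 and Psme2 form the PA28 cap, which interferon gamma induces together with the immunoproteasome. Psme1 measured 1339, 1084 and 1138 in WT and 1335, 1036 and 1246 in cKO, and Psme2 1098, 754 and 777 in WT and 953, 888 and 1048 in cKO. Their log2 differences were 0.02 (-0.32 to 0.36) and 0.15 (-0.23 to 0.54). Psme3, the nuclear relative of these, measured 1133 ± 75.9 and 1169 ± 109, and Psmf1 277 ± 27.2 and 259 ± 17.4.

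**Figure D4:**
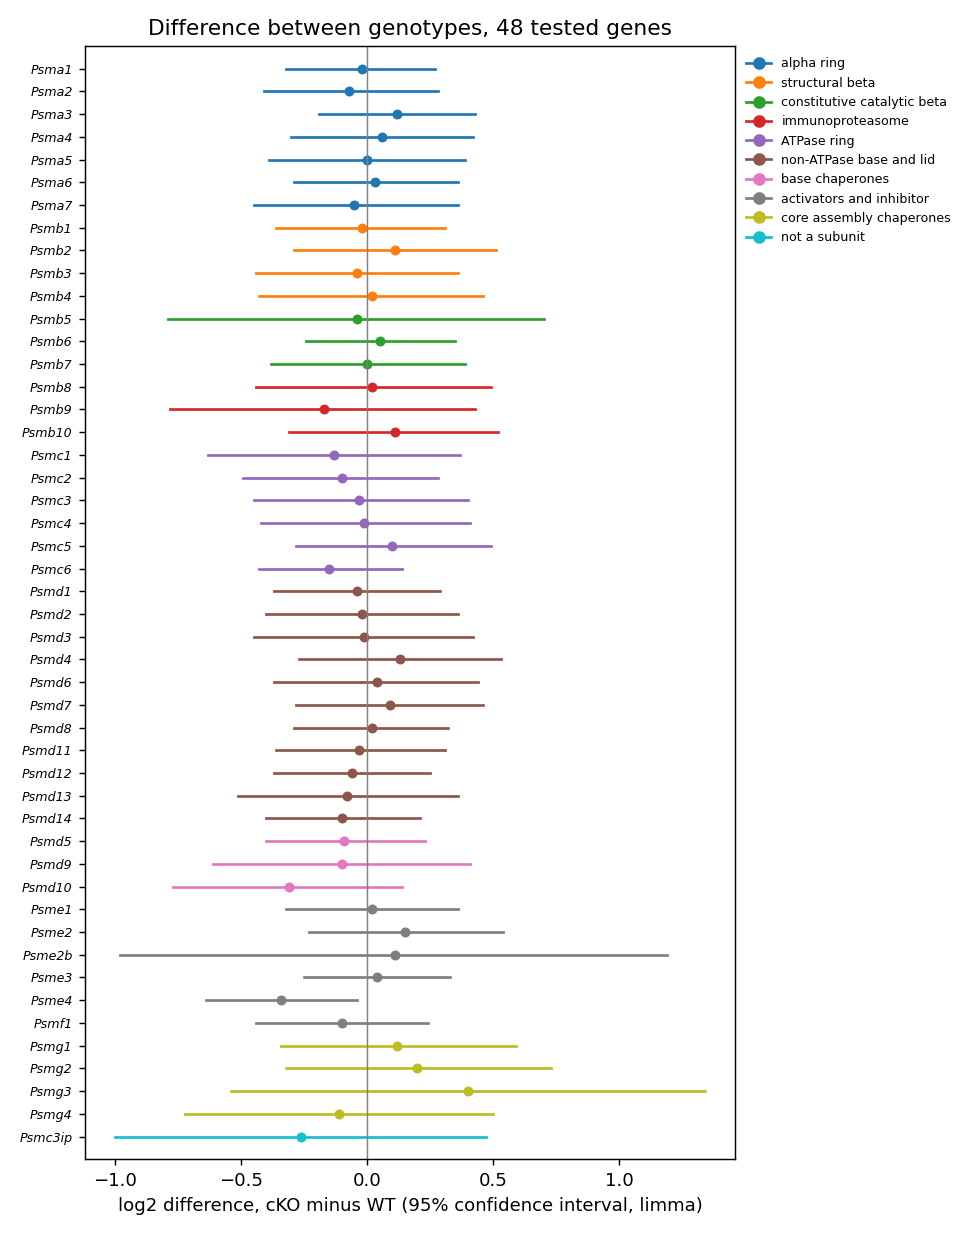
Log2 difference between cKO and WT for the 48 tested genes, with points at the limma estimate and bars for the 95% confidence interval, coloured by role. The bar of Psme4 (-0.64 to -0.04) is the only one that does not cross 0, before any adjustment for 14678 tests, and the longest bars belong to the low-count genes Psme2b, Psmg3 and Psmc3ip and to Psmb5.

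Among the libraries, those of replicate 1 stood apart in both genotypes, while replicates 2 and 3 did not group by number. As a median over the 48 genes, the log2 level relative to each gene's mean over the libraries was 0.20, -0.02 and -0.17 in replicates 1 to 3 of WT and 0.18, -0.20 and 0.02 in those of cKO. Replicate 1 was highest in both genotypes, and the remaining WT and cKO libraries were interleaved. The average of the replicate 1 libraries was above that of the other libraries for 45 of the 48 genes, with a median log2 difference of 0.27. Over all 14678 genes that median was 0.01, and for the 8498 genes whose mean was 50 normalized counts or more it was 0.04. Both replicate 1 libraries exceeded all 4 others for 28 of the 48 genes (58.3%), for 16.2% of all genes and for 21.6% of those 8498. These are descriptions, since the labels give no reason to set replicate 1 apart.

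The roles took part in this to different degrees. The median log2 difference of replicate 1 from the other libraries was 0.52 for Psmb8 to Psmb10, 0.36 for Psmb5 to Psmb7, 0.38 for the ATPases, 0.35 for the non-catalytic beta subunits and 0.35 for the base chaperones. It was 0.22 for the alpha ring, 0.24 for the core chaperones, 0.20 for the other base and lid subunits and 0.05 for the caps and Psmf1. All 31 constitutive subunits of core and regulatory particle were higher in replicate 1. Psmb5 (0.91), Psmg3 (0.90) and Psmb9 (0.69) had the largest values, and Psme3 (-0.01), Psme4 (-0.13) and Psme2b (-0.61) were the 3 below 0. Psmb6, at 0.15, moved less than the other 5 catalytic genes.

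**Figure D5:**
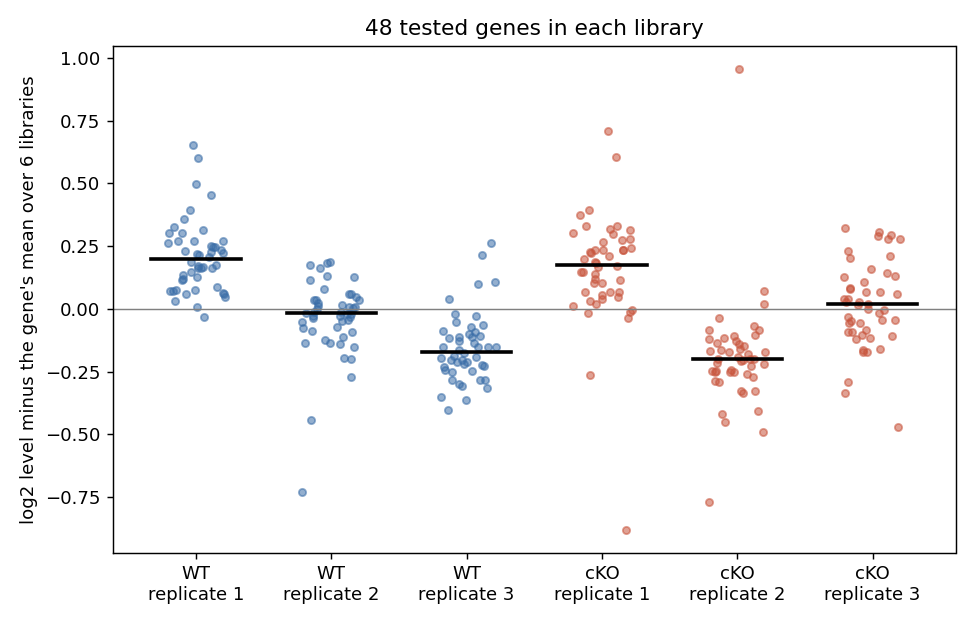
Log2 level of each of the 48 tested genes minus that gene's mean over the 6 libraries, 1 point per gene in each library (blue WT, red cKO), with horizontal jitter and black lines at the medians. The medians of the replicate 1 libraries are 0.20 in WT and 0.18 in cKO, and the lowest are -0.17 in WT replicate 3 and -0.20 in cKO replicate 2.

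Depth and mitochondrial share also set replicate 1 apart. The replicate 1 libraries held 10339054 (WT) and 9657005 (cKO) reads. Replicates 2 and 3 held 5160902 and 6528052 in WT and 3019152 and 3082897 in cKO. Mitochondrial transcripts took 2.71%, 7.92% and 9.83% of reads in replicates 1 to 3 of WT. In those of cKO they took 3.66%, 12.3% and 19.1% (Wilson 95% intervals at most 0.088 percentage points wide in all libraries). At each replicate number the cKO library had fewer reads and a larger mitochondrial share than the WT library. The proteasome genes took 0.775% and 0.758% of reads in replicate 1 and 0.536% to 0.631% in the others, with intervals at most 0.017 points wide. These intervals cover counting error only and not the spread between libraries. Of the reads outside mitochondrial genes, proteasome genes took 0.796% and 0.787% in replicate 1 and 0.612% to 0.693% in the others. The 10 GC B cell markers were detected in each group, and their normalized counts summed to 31270 to 32500 for WT and 29020 to 32320 for cKO. Of these 10, 4 had a higher mean in cKO, and 2 were higher without overlap (6.28% of all genes were). At an unadjusted limma p under 0.05 there were 2 of the 10, beside 5.15% of all genes. The 10 T cell markers summed to 889 to 997 in WT and 770 to 2090 in cKO, with the maximum in cKO replicate 2. The 10 macrophage and monocyte markers summed to 121 to 318 and 306 to 564. No marker of either list was at 0 throughout a group, and all 10 of each had a higher mean in cKO. Among the dendritic cell and neutrophil markers, Clec9a was at 0 throughout WT, and Ly6g and Mpo throughout cKO. The 6 plasma cell markers summed to 8701, 8329 and 12950 in replicates 1 to 3 of WT and 7131, 16140 and 7435 in those of cKO. They were highest in WT replicate 3 and cKO replicate 2, the libraries with the lowest proteasome medians. Among the other libraries WT replicate 1 had the largest sum (8701) and also the highest proteasome median (0.20). The part of depth, mitochondrial share and other cells in the proteasome values was not tested.

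Genes that work with the proteasome, or that regulate it, likewise gave no call. The median log2 difference of replicate 1 from the other libraries was 0.02 for partners, 0.16 for regulators of proteasome genes, -0.07 for interferon regulators and -0.09 for antigen processing genes. Of 21 matched partners outside the symbol pattern, such as assembly factors, ubiquitin receptors and shuttles, 0 were called, 6 had log2 differences above 0 and 15 below (median -0.085). The import receptor Ipo9 measured 768, 721 and 658 in WT and 650, 566 and 690 in cKO (-0.17, -0.48 to 0.13). AI314180, the mouse symbol used for the proteasome adaptor Ecpas, and Ddi2, a protease that activates NRF1, had log2 differences of -0.14 and -0.17. Ubqln2, a shuttle chosen after its values were seen, was the one partner of the 21 lower in cKO without overlap, at 161 ± 7.16 and 147 ± 7.05. Of all genes 5.28% were lower without overlap. Its log2 difference was -0.13 (-0.49 to 0.23), with a limma adjusted p of 0.95.

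Of 11 regulators of proteasome genes 0 were called, with 6 differences above 0 and 5 below (median 0.006). Nfe2l1, which encodes NRF1, the factor that raises proteasome genes when degradation is blocked, measured 430, 493 and 486 in WT and 465, 623 and 529 in cKO. The groups overlapped, and the log2 difference was 0.19 (-0.15 to 0.53). Foxo4 (64.2 ± 12.4 and 94.2 ± 19.9), Ngly1 (244 ± 40.6 and 197 ± 17.0), whose enzyme removes sugar chains from NRF1, and Nfyb (368 ± 31.8 and 303 ± 61.3), a subunit of the CCAAT-binding factor, had the smallest p in this list. Their log2 differences were 0.54, -0.30 and -0.29, with limma adjusted p-values of 0.915, 0.926 and 0.926. The sign turned for Foxo4 (-0.06 within replicate 1, 0.84 within replicates 2 and 3) and for Ngly1 (0.03 and -0.46).

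Interferon regulators of the immunoproteasome (13 genes) had 0 calls, with 7 differences above 0 and 6 below (median 0.062). Irf1, a transcription factor that interferon gamma induces and that activates Psmb9 and Tap1, measured 710, 319 and 546 in WT and 319, 376 and 549 in cKO. Its libraries spread widely within each genotype, and its log2 difference was -0.30 (SE 0.30). It was -1.15 within replicate 1 and 0.12 within replicates 2 and 3. Stat2 measured 412, 426 and 461 in WT and 463, 480 and 707 in cKO, without overlap, and did not pass (log2 difference 0.32, -0.09 to 0.73). It was 1 of the 13 without overlap, and 6.28% of all genes were higher in cKO without overlap. Irf2 and Ifngr2 differed by -0.24 and 0.31.

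The 12 antigen processing genes also had 0 calls, with 8 differences above 0 and 4 below (median 0.064). Tap1, the divergent neighbour of Psmb9, measured 1783, 1152 and 1185 in WT and 1474, 1194 and 1581 in cKO. Its WT replicate 1 was highest, as for Psmb9, and its log2 difference was 0.06 (-0.38 to 0.51) beside -0.17 for Psmb9. Tpp2, a peptidase that trims proteasome products, measured 769 ± 96.1 and 627 ± 39.3, and B2m, the light chain of MHC class I, 3534 ± 818 and 4647 ± 1330. The groups overlapped for both genes, with log2 differences of -0.29 (-0.61 to 0.03) for Tpp2 and 0.38 (-0.20 to 0.96) for B2m. The sign turned for B2m (-0.20 within replicate 1, 0.67 within replicates 2 and 3). Calr, an ER chaperone of MHC class I, measured 3634, 3227 and 3752 in WT and 3773, 3921 and 4829 in cKO, without overlap. Its log2 difference was 0.23 (-0.10 to 0.57), with a limma adjusted p of 0.928. Calr was 1 of the 12 without overlap, beside 6.28% of all genes higher in cKO without overlap.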

How the data were processed

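The 3 WT and 3 cKO RNA-seq libraries were grouped by their titles. Tools listed in the submitters' processing notes, without roles or order, are HTSeq, SAMtools, TopHat2, HISAT, HISAT2 and DESeq2, with the mm10 genome. Neither annotation release nor strand setting is given in these sources. The authors deposited 1 table whose library columns hold a signal (read counts scaled by 1 factor for each library) and, per the file headers their log2 fold change, its test score (a Wald statistic), p-value and adjusted p-value. All values in a column were whole multiples of 1 step (100% within 0.01 read), which gave back reads: 3019152 to 10339054 per library, 1 read being worth 0.506 to 2.04 normalized counts.

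limma 3.58.1 (R 4.3.3) with a mean-variance trend was fitted on log2(value + 1) over 14678 genes with a mean of at least 1, genotype alone in the model, with Benjamini-Hochberg adjustment over all genes at 0.05. Fold changes on this scale understate changes of low genes. Alternatives included edgeR 4.0.16, DESeq2 1.42.0 and limma-voom on the recovered reads. Lengths are unions of exons of coding transcripts in GENCODE M21 (basic set, GRCm38), in which all 49 identifiers were found. Of 22 listed partners, Paaf1 was not matched by symbol. The genes and lists were chosen with earlier results of these data known. Any proteasome gene could be named. Values per library are given for the 6 catalytic genes, the gene of smallest p in each role, the extremes of level and Senp1, Tap1, Irf1 and Nfe2l1, and were added for Psme1 and Psme2. From each pathway list the 3 genes of smallest p are named, some by mean or log2 difference only. Neutrophil and dendritic cell markers were also summed: 10.3 to 92.2 and 195 to 397 normalized counts over the libraries. A further marker list is not reported here.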

Additional observations from a re-analysis of the deposited data

How the results depend on the processing

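Under 19 alternatives with a test, 0 of the 48 proteasome genes were called, by limma with other scalings, pseudocounts and filters, by edgeR, DESeq2 and limma-voom, and with each library left out. The smallest adjusted p of any of them was 0.440. Over all genes the calls were 20 by DESeq2, 16 without cKO replicate 2 with a term for replicate 1, 3 with that term alone, 1 under the replicate block and 0 in the other alternatives. The median log2 difference of the 48 proteasome genes stayed between -0.114 (without cKO replicate 1) and 0.101 (without WT replicate 1), inside the spread of the library medians (SD 0.187). The sign of a gene's difference turned in at least 1 of 20 alternatives for 39 of the 48 genes. The sign held in all 20 for Psma3, Psmc6, Psmd5, Psmd10, Psmd14, Psme4, Psmf1, Psmg2 and Psmg3. For Psma3 the difference was only 0.001 within replicate 1 alone. The replicate block, the term for replicate 1 with all libraries and the filters leave the differences unchanged and cannot turn a sign. The log2 ratio of inducible to constitutive catalytic subunits (-0.033, cKO minus WT) moved by more than the library SD of 0.134 only within replicate 1 alone (-0.168, 1 library per genotype). With single libraries left out it ranged from -0.106 (without WT replicate 2) to 0.068 (without WT replicate 1), and it was -0.005 with all annotated exons as length, an alternative chosen after the data were seen. Same-numbered libraries correlated at 0.789, 0.0373 and 0.325 in their deviations from the group means, so the numbers were not taken as pairs. A replicate block left the calls at 0. Each replicate number has 1 library per genotype, so a block cannot move the median (-0.017) or the ratio (-0.033). Psme4 had an unadjusted p under 0.05 in 14 of the 19 alternatives with a test. These alternatives reuse the same libraries and are not independent of each other. In the main limma fit 2.08% of the 48 genes had an unadjusted p under 0.05, beside 5.15% of all genes. Depth limits the genes of low count most: a single read is worth up to 2.04 normalized counts in cKO replicate 3.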
